A study of Mus musculus with 20 samples.

Results

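The Ifi200 and Ifitm genes are 2 families of interferon-inducible genes, represented here by 8 genes of the 16536 and 16140 listed in the study's 2 expression tables. They are 4 Ifi200 genes (Ifi203, Ifi204, Ifi205 and Mndal) and 4 Ifitm genes (Ifitm1, Ifitm2, Ifitm3 and Ifitm6). The genes were taken by symbol and all 8 were found in both tables. They were chosen from results of these same data, which values led to each is not recorded, and the rule has no threshold. Their differences between monocytes and microglia are therefore given as a description. Calls of the members in these comparisons are listed, but nothing is read from them.

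RNA was measured in monocytes and microglia from mouse brains 3 days after permanent photothrombosis, a model of stroke where illumination of a circulating dye blocks cortical vessels. In Cxcr4-GFP reporter mice, GFP-negative microglia and GFP-positive monocytes gave 4 libraries each, and each of 4 animals or pools (1 of 2 mice, 1 of 5 mice, 2 single mice) gave both. In the Cxcr4CreER line, where a tamoxifen-dependent Cre recombinase is expressed from Cxcr4, TdT-negative microglia and TdT-positive monocytes gave 3 libraries each in control mice, described as wild type and carrying the same driver, and 3 each in conditional Cxcr4 knockout (KO) mice. Reporter signal and population coincide in all 6 groups, and whether Cxcr4 was deleted in KO microglia is not shown. The titles of the Cxcr4-GFP and KO libraries share the tag BrKo and those of the controls carry BrC, which the labels do not explain, and age, sex and tamoxifen schedule were not given.

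Ifi200 proteins carry a HIN domain that binds nucleic acids, most also carry a pyrin domain for contacts with other proteins, and several sense DNA in the nucleus or cytosol. Ifitm proteins are small membrane proteins that hinder the fusion of enveloped viruses with cell membranes. Interferons act through receptors and JAK kinases on transcription factors that bind interferon-stimulated response elements and gamma-activated sites in the promoters of such genes. Myeloid cells express many members of both families.

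The stretches before the transcription start are shown for the 4 members that hold a match to the response element core GAAANNGAA, because Ifi203 and Mndal share the same site and differ in the values below. RefSeq promoters (build GRCm38.p6) were found for 7 of the 8 members, in 9 windows; Ifi204 has no entry. Capitals mark the match, all 4 lie on the strand of the gene, and all 4 genes are on the minus strand.
Ifi203, chr1:173942493-173942592: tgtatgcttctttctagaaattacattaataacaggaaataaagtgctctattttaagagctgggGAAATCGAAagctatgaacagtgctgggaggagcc
Mndal, chr1:173880197-173880226: gggGAAATCGAAagctatgaacagtgctgg
Ifi205, chr1:174031811-174031905: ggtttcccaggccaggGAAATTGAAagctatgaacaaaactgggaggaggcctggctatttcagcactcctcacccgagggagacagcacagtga
Ifitm2, chr7:140955988-140956061: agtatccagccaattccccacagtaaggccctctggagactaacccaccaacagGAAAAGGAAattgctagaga
The match began 35 bases before the start in Ifi203, 36 in Mndal, 134 in Ifi205 and 46 in Ifitm2. Over 30 bases that begin 3 bases before the match, Ifi203 and Mndal were identical at 30 positions, and each was identical to Ifi205 at 25 and to Ifitm2 at 14. Read on both strands, GAAANNGAA was found in the 250 bases before the start of 7.13% of 32851 RefSeq promoters. A second Mndal start held its reverse complement on the other strand, 53 bases before the start, and a second Ifi203 start held no match. For Mndal only 30 bases are shown, because an exon of another Mndal transcript covers the site. The core of the gamma-activated site, TTCNNNGAA, was found in 7.02% of promoters and, among the members, in that of Ifitm6 alone, 10 bases before the start. A match is a description of letters and was not tested as a binding site.

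Marker genes followed the labels of the sorted cells. Microglia marker genes summed to 160374 to 240538 normalized counts in Cxcr4CreER microglia and 19695 to 31462 in monocytes, and monocyte markers to 329 to 2716 in microglia and 53375 to 101608 in monocytes. Cxcr4 was at 0, 7.88 and 0 normalized counts in control microglia and 0.912, 0 and 0 in KO microglia. In monocytes it was at 1183, 1332 and 1166 in controls and 784, 1010 and 536 in KO, below every control library but not called (log2 fold change -0.70 ± 1.10 SE, limma adjusted p = 0.96). This SE comes from 1 spread over microglia and monocyte groups together, and is not the spread of the monocytes alone. Libraries held 0.617 to 14.9 M reads in the Cxcr4-GFP table and 9.73 to 56.8 M in the Cxcr4CreER table. Few genes were detected (3029 to 5598, against 10422 or more in the other Cxcr4-GFP libraries) in GFP monocytes 3 and in GFP microglia 3 and 4. The 2 tables were normalized apart, so no level is compared between them.

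The monocytes of control Cxcr4CreER brains had higher mean levels of all 8 genes than the microglia. Values below are normalized counts, in the order of libraries 1, 2 and 3. Ifi203, a nuclear HIN-domain protein gene, was at 24.6, 18.7 and 29.0 in control microglia and at 6505, 4205 and 7796 in control monocytes. In KO brains it was at 67.5, 41.2 and 62.0 in microglia and at 6369, 2742 and 6631 in monocytes. Every monocyte library lay far above every microglia library, with ratios of means of 256 in controls and 92.2 in KO.

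Ifi204, whose product p204 is a DNA-binding protein linked to STING signalling, was the member closest between the populations. It was at 11134, 4138 and 11571 in control microglia and at 22218, 9658 and 23621 in control monocytes. In KO it was at 4891, 8691 and 7629 in microglia and at 23382, 11702 and 19062 in monocytes. The groups overlapped in controls, where monocyte library 2 lay below microglia libraries 1 and 3, and were apart in KO. The ratio of means was 2.07 in controls and 2.55 in KO.

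Ifi205, known as a regulator of the inflammasome adaptor gene Pycard, was at 47.1, 541 and 1767 in control microglia and at 19851, 8258 and 17367 in control monocytes. KO microglia had 316, 502 and 238 and KO monocytes 26535, 6454 and 14793. Control microglia thus spread widely, with library 1 far below library 3. Mndal, a myeloid nuclear differentiation antigen-like gene, was at 429, 120 and 513 in control microglia and at 7462, 4227 and 8554 in control monocytes. It was at 13.7, 489 and 200 in KO microglia and at 7015, 3526 and 5462 in KO monocytes. KO microglia 1 had the lowest Mndal of the 12 libraries.

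Ifitm3, the best known antiviral member of its family, which acts in late endosomes, was at 17139, 7118 and 18168 in control microglia and at 82566, 44183 and 68038 in control monocytes. In KO brains it was at 6061, 15579 and 15892 in microglia and at 91760, 57658 and 69089 in monocytes. The groups did not overlap in either genotype, and the means differed 4.59-fold in controls and 5.82-fold in KO. Ifitm2, a close relative of Ifitm3, was at 1135, 1302 and 866 in control microglia and at 16006, 13134 and 11930 in control monocytes. In KO it was at 722, 496 and 766 in microglia and at 19111, 16882 and 14095 in monocytes. Neither genotype had overlap, and the means differed 12.4-fold in controls and 25.2-fold in KO.

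Ifitm1, which acts mainly at the plasma membrane, was at 0.703, 160 and 243 in control microglia and at 10637, 13397 and 12113 in control monocytes. KO microglia had 166, 131 and 179 and KO monocytes 15602, 17918 and 11583. A single read accounted for the 0.703 of control microglia 1, so the control mean rests on the other 2 libraries. Ifitm6, a less studied mouse member, was at 2.11, 0 and 138 in control microglia and at 4707, 3445 and 4909 in control monocytes. It was at 83.0, 1.87 and 147 in KO microglia and at 6018, 1831 and 4473 in KO monocytes. Microglia of both genotypes held libraries near 0 beside libraries above 80 normalized counts.

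**Figure D1:**
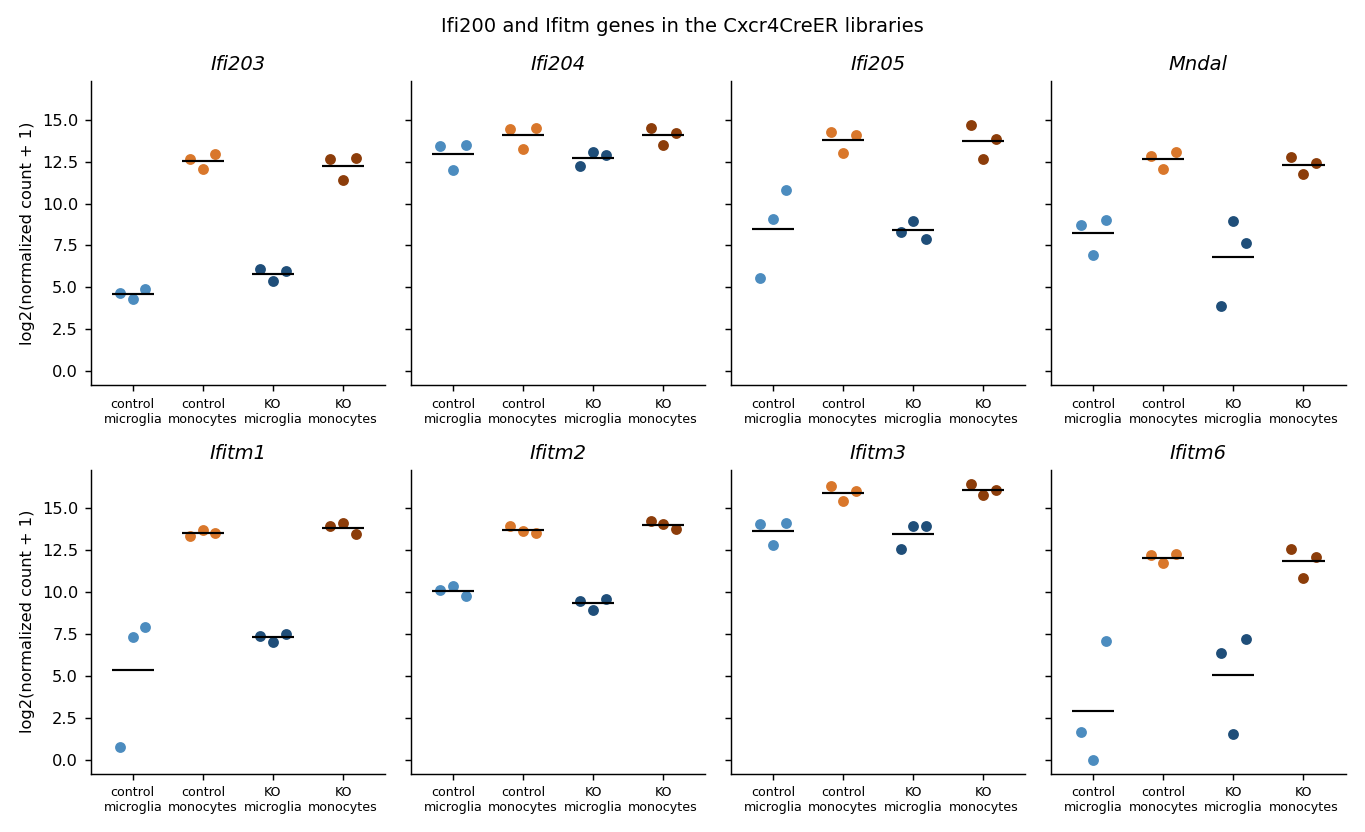
Each panel is 1 gene. The vertical axis is log2(normalized count + 1), points are libraries in order 1 to 3 and horizontal lines are means of the log2 values, for 3 libraries each of control microglia, control monocytes, KO microglia and KO monocytes. Monocyte points lie above microglia points for every gene except Ifi204 in controls, and microglia libraries spread most for Ifitm1 in controls and for Ifitm6.

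On the log2(value + 1) scale of the fit, the differences between control monocytes and control microglia were 7.92 ± 0.52 (SE) for Ifi203, 1.08 ± 0.46 for Ifi204, 5.31 ± 1.03 for Ifi205 and 4.43 ± 1.04 for Mndal. For the Ifitm genes they were 8.21 ± 1.38 for Ifitm1, 3.64 ± 0.27 for Ifitm2, 2.27 ± 0.43 for Ifitm3 and 9.15 ± 1.73 for Ifitm6. The median over the members was 4.87, and over all 12432 genes tested -0.24. In KO the members ranged from 1.34 for Ifi204 to 6.80 for Ifitm6, with a median of 5.42 against -0.25 over all genes. These medians are a description, because the members were chosen from results of these data. Ifitm1 and Ifitm6 had large folds with large errors, whereas Ifi203 and Ifitm2 had folds many times their errors.

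Of the 8 members, 7 were called higher in monocytes in controls and 7 in KO, Ifi204 being the exception in both, beside 3.46% and 3.85% of all genes tested. Groups did not overlap for 7 members in controls and 8 in KO, beside 9.60% and 12.7% of all genes with monocytes above microglia. Nothing is read from these counts, because the members were chosen from such results. All 8 pass the filter on low values in the microglia libraries alone as well as in the monocytes alone. Without control microglia 2 the difference of Mndal was 3.78 and no longer called, nor was it without control monocytes 1 or 3 (4.33 and 4.23). In KO, Ifitm1 lost its call without KO microglia 2 (6.41) or KO monocytes 1 (6.51), and Ifitm6 without any 1 of 5 of the 6 libraries (5.04 to 7.47).

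The sum of the neutrophil marker genes moved with the same split. It was 184 to 485 normalized counts in control microglia and 16558 to 41412 in control monocytes, and 218 to 3081 and 40113 to 76995 in KO. S100a8 was the largest part in each control monocyte library (10982 to 29643), followed by S100a9 (3979 to 7575). Ly6g was at 8.69, 0 and 10.2 there. Cxcr2 was at 115, 704 and 1947 in control monocytes and at 183, 309 and 221 in control microglia. Retnlg was at 1120, 1231 and 1364 in control monocytes and Mmp8 at 242, 790 and 386, and both were at 0 in control microglia. Camp, Ngp and Ltf lay between 0 (Ngp) and 2015 (Camp) in control monocytes. Of the 11 markers, Elane and Mpo were at 0 in every control monocyte library. In KO monocytes no marker was at 0 in every library, with Elane at 2161, 306 and 119 and Mpo at 819, 462 and 0. The part of these cells in the members' levels was not tested, and in such bulk samples fewer cells of a type and less RNA per cell cannot be told apart.

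Set against the monocyte mean of the same genotype, the members differed in their share in the microglia libraries. This share uses the same values as the ratios above, from which the members may have been chosen, and is a description. Ifi204 in microglia was at 60.2%, 22.4% and 62.5% of the monocyte mean in controls and at 27.1%, 48.2% and 42.3% in KO. Ifitm3 was at 26.4%, 10.96% and 28.0% in controls and at 8.32%, 21.4% and 21.8% in KO. These 2 genes, 1 of each family, were the members with the largest share in microglia.

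The other members were lower in microglia on this scale. Ifitm2 was at 2.97% to 9.51% of the monocyte mean over the 6 microglia libraries, Mndal at 0.256% to 9.16% and Ifi205 at 0.311% to 11.7%. Ifi203 was at 0.303% to 1.29%, Ifitm1 at 0.00584% to 2.01% and Ifitm6 at 0% to 3.59%. Ifi203 and Mndal, whose 30 bases around the response element core are identical, thus had different ranges, with Mndal above Ifi203 in 5 of 6 microglia libraries. In KO microglia 1, Mndal was at 0.256% and Ifi203 at 1.29%.

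Monocyte markers varied between libraries on the same scale. In control microglia 1, Vcan stood at 82.6% of the control monocyte mean, above Ifi204 and Ifitm3 in that library, and F13a1 at 14.0%, while Ccr2 stood at 0.161%. In control microglia 2 and 3 the 7 markers stood at 7.92% (Plac8) or less. In KO microglia, the markers Ly6c2, Chil3 and Vcan were at 0 in all 3 libraries, and Ccr2 was at 0.556% to 0.925% of the KO monocyte mean. Plac8 was at 0.584% to 4.76% and F13a1 at 1.56% to 4.37%. Ifi204 stood at 27.1% or more and Ifitm3 at 8.32% or more in the same libraries.

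**Figure D2:**
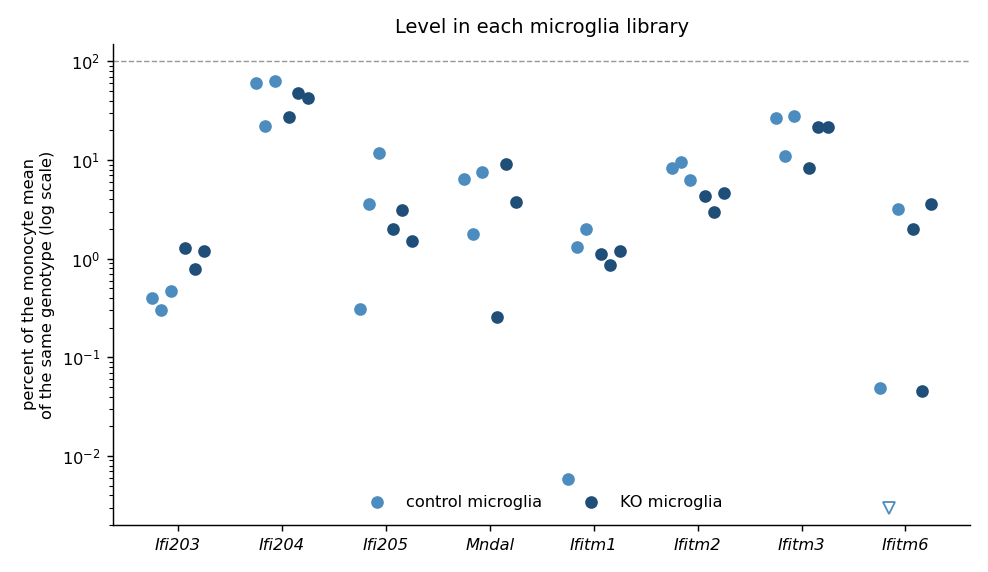
The vertical axis, on a log scale, is the normalized count of a gene in 1 microglia library as a percent of the mean of the 3 monocyte libraries of the same genotype, shown by gene for 3 control (light) and 3 KO (dark) libraries. The dashed line is 100% and the open triangle marks a value of 0 (Ifitm6 in control microglia 2), which a log axis cannot show. Ifi204 and Ifitm3 lie highest, at 8.32% to 62.5%, and Ifi203 lies at 0.303% to 1.29%.

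In the Cxcr4-GFP table, made from total RNA at lower depth, the members were found mainly in monocytes. Ifi204 was at 36.2, 15.9, 3.75 and 1.48 normalized counts in GFP microglia 1 to 4 and at 193, 317, 214 and 298 in GFP monocytes. Ifitm3 was at 69.7, 68.8, 49.9 and 1.48 in microglia and at 516, 965, 373 and 1045 in monocytes. Ifitm2 was at 7.75, 9.90, 117 and 1.48 in microglia and at 221, 228, 210 and 141 in monocytes. For these 3 genes all monocyte libraries lay above all microglia libraries, and GFP microglia 4 was the lowest library.

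Ifi203 was at 244, 229, 0 and 196 in GFP monocytes and at 7.75, 2.15, 0 and 0 in microglia. Mndal was at 12.5, 11.7, 0 and 21.8 in monocytes and at 0, 2.58, 0 and 0 in microglia. Ifi205 was near the level of a few reads in both, with 50 reads over the 4 monocyte libraries and 3 over the microglia (ratio 5.64, 95% counting interval 1.822 to 28.3). The overlap of these genes comes from the 0 or low value of GFP monocytes 3, a library with 3029 detected genes.

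Ifitm1 was at 0 in all 4 GFP microglia libraries and at 63.3, 77.9, 0 and 48.5 in monocytes, a mean at least 66.2-fold higher against a floor of 3 reads over the microglia group. Ifitm6 was likewise at 0 in microglia and at 43.2, 100, 0 and 21.8 in monocytes, at least 57.7-fold higher. Such floors and intervals cover counting error only.

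Only Ifi204, Ifitm2 and Ifitm3 passed the filter on low values in this table, and they passed through the monocyte libraries alone. Their differences on the log2(value + 1) scale were 4.76 ± 1.51 (SE), 3.93 ± 1.54 and 4.56 ± 1.16. None of the 3 was called in the limma fit, beside 0.415% of 7706 genes called higher, and each had an unadjusted p under 0.05. edgeR called 1 of them and DESeq2 2, on reads recovered from the values. Groups without overlap were found for 5.22% of all genes tested. Without GFP monocytes 3 and GFP microglia 3 and 4, Ifi204 (3.40) and Ifitm3 (3.52) were called. The fit without these 3 was chosen after seeing the data. Ifitm3 was also called without GFP microglia 1 (5.01), 2 (5.00) or 4 (3.40). Nothing is read from these calls, because the members were chosen from such results and entered the test through the group where they are high. Neutrophil markers summed to 0 to 7.75 in GFP microglia and 23.0 to 1032 in GFP monocytes, and their part was not tested.

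**Figure D3:**
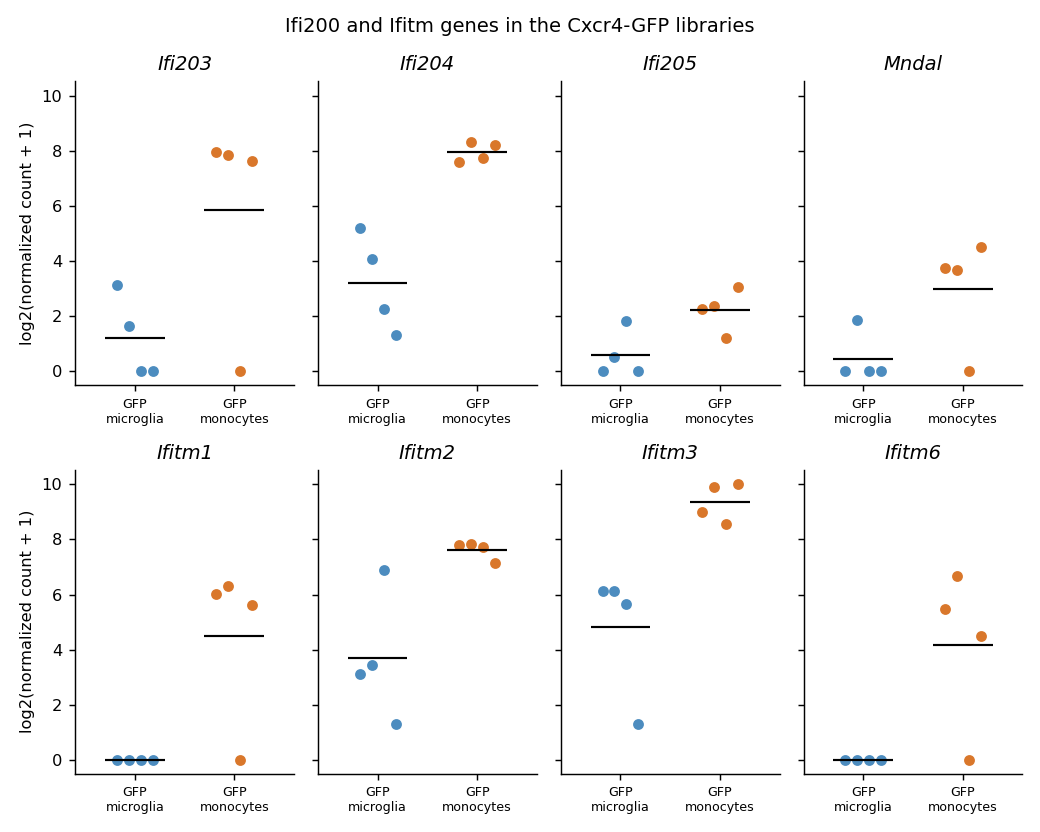
Each panel is 1 gene in the Cxcr4-GFP table. The vertical axis is log2(normalized count + 1), points are libraries in order 1 to 4 and horizontal lines are means of the log2 values. Ifitm1 and Ifitm6 are at 0 in all 4 microglia libraries, and the third monocyte library is at 0 for Ifi203, Mndal, Ifitm1 and Ifitm6.

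The KO and control groups compare cells from brains with and without the conditional deletion of Cxcr4. No member was called in KO against control monocytes, beside 0.0402% of 12432 genes, and none had an unadjusted p under 0.05, where edgeR and DESeq2 called 0 members too. The 3 KO and 3 control libraries overlapped for all 8 genes, while 8.82% of all genes had no overlap. Ifi200 differences were -0.29 ± 0.52 (SE) for Ifi203, 0.01 ± 0.46 for Ifi204, -0.06 ± 1.03 for Ifi205 and -0.33 ± 1.04 for Mndal. Ifitm differences were 0.30 ± 1.38 for Ifitm1, 0.29 ± 0.27 for Ifitm2, 0.19 ± 0.43 for Ifitm3 and -0.23 ± 1.73 for Ifitm6, with limma adjusted p of 0.92 to 1 over the 8. Each SE comes from 1 spread over monocyte and microglia groups together, and is not the spread of the monocytes alone. Ifitm1, for example, was at 10637 to 13397 in control monocytes, but at 0.703 to 243 in control microglia. Signs of Ifi203, Ifi204, Ifi205, Ifitm3 and Ifitm6 turned when single libraries were left out, so no direction is given for them. A p that misses the threshold does not show that the genotypes are alike.

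In KO against control microglia, Ifi203 and Ifitm2 had groups that did not overlap, 2 of 8 members beside 9.46% of all genes. Ifi203 was at 41.2 to 67.5 in KO microglia and at 18.7 to 29.0 in control microglia, a difference of 1.195 ± 0.52 (SE) that missed the threshold (limma adjusted p = 1, unadjusted p = 0.039). Ifitm2 was at 496 to 766 in KO and at 866 to 1302 in control microglia, a difference of -0.74 ± 0.27 (limma adjusted p = 1, unadjusted p = 0.020). Ifi203 was thus higher and Ifitm2 lower in 3 of 3 KO libraries, but neither was called. Ifi203 had 35, 19 and 34 reads in control microglia and 74, 22 and 72 in KO microglia. Of the monocyte markers, Ccr2 was at 22.5, 13.8 and 5.98 in control and at 72.0, 120 and 81.0 in KO microglia. Ly6c2, Chil3 and Vcan were at 0 in all KO microglia libraries. The part of monocyte RNA in the Ifi203 reads was not tested.

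No member was called between the microglia groups, beside 0.0322% of all genes, and edgeR and DESeq2 called 0 members. Mndal (-1.40 ± 1.04), Ifitm1 (1.97 ± 1.38) and Ifitm6 (2.12 ± 1.73) had large differences with large errors. Ifitm1 rests on control microglia 1, without which its difference was -0.32, and Mndal rests on KO microglia 1, without which it was 0.07. The difference of Ifitm6 was 4.22 without control microglia 3 and 0.66 without control microglia 2.

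The term for the KO difference of monocytes minus that of microglia called no gene in limma, 0% of those tested. Of the 12432 genes tested, 590 had an unadjusted limma p under 0.05. The term was 1.03 ± 0.39 for Ifitm2 (limma adjusted p = 0.99, unadjusted p = 0.022). For Ifi203 it was -1.49 ± 0.73 (limma adjusted p = 0.999, unadjusted p = 0.064). DESeq2 called 276 genes for this term and edgeR 0, with 0 members in both.

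**Figure D4:**
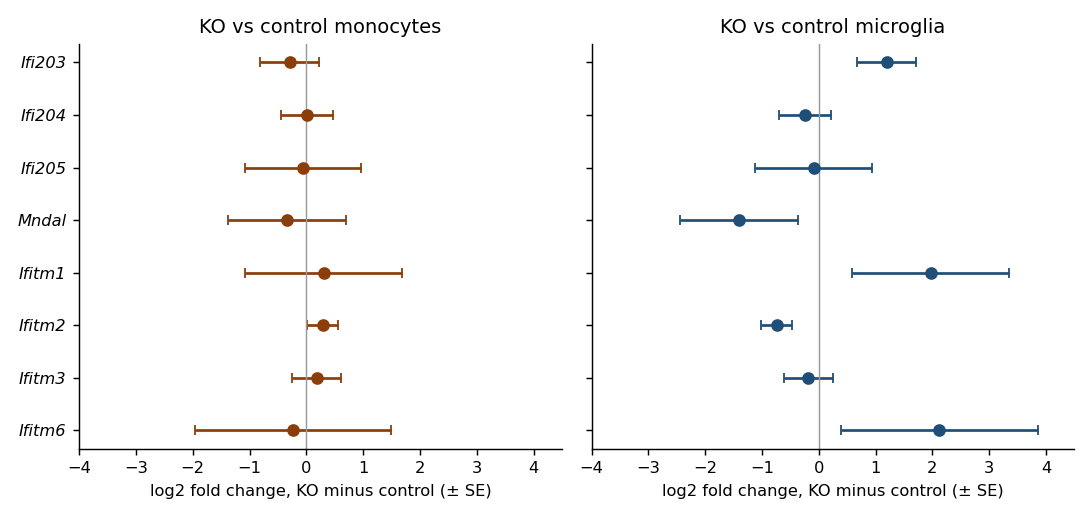
Points are log2 fold changes, KO minus control, from the fit on log2(normalized count + 1), and bars are standard errors, for monocytes on the left and microglia on the right with 3 libraries a group. The bars of a gene have the same length on both sides, because all groups share 1 estimate of spread. All monocyte points lie between -0.33 and 0.30, and in microglia Ifi203 lies at 1.195 and Ifitm2 at -0.74.

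Within the groups the members did not move as 1 block. Of the 12 Cxcr4CreER libraries, 4 came from animals that gave no library of the other population: control microglia 2, control monocytes 2, KO microglia 1 and KO monocytes 2. Ifi204, Mndal and Ifitm3 were each the lowest of their group in all 4 of these libraries, 3 of 8 members beside 1.34% of all 12432 genes. Ifi204, for example, was at 4138 in control microglia 2 against 11134 and 11571, and at 4891 in KO microglia 1 against 8691 and 7629. Ifitm2 and Ifitm1 did not follow, and Ifitm1 was the highest of its group in control monocytes 2 and KO monocytes 2. This pattern was noticed in the data and its cause was not tested.

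Other interferon genes had the same low libraries. Of 34 interferon-stimulated targets, 12 were the lowest of their group in all 4, as were Ifi208, Ifi209, Ifi211 and Ifi213 among the 7 other Ifi200 genes tested. The summed level of the 34 targets was 92352 in control monocytes 2 against 215673 and 230423, and 98207 in KO monocytes 2 against 159663 and 239760. It was 57124 in control microglia 2 against 91900 and 113950, and 53508 in KO microglia 1 against 82223 and 98828. In both populations and both genotypes the library of the unpaired animal was thus the lowest in this sum.

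In monocytes the low libraries took in more members. Control monocytes 2 was the lowest of its group for 6 of 8 members and KO monocytes 2 for the same 6, the 4 Ifi200 genes, Ifitm3 and Ifitm6. In control monocytes 2 these stood at 42.1% (Ifi204) to 71.7% (Ifitm6) of the mean of the other 2 libraries, where the median over all genes was 71.4%. In KO monocytes 2 they stood at 31.2% (Ifi205) to 71.7% (Ifitm3), with a median of 81.1% over all genes. Over all genes, 38.6% and 35.0% were lowest in these libraries. Neutrophil markers summed to 41412 in control monocytes 2 against 16558 and 31779, but to 50183 in KO monocytes 2 against 76995 and 40113. Monocyte markers were lowest of their group in these libraries, with sums of 54023 against 79067 and 75973 in controls and of 53375 against 101608 and 78441 in KO. T and NK cell markers summed to 59.3 against 15.8 and 318 in controls and to 1244 in KO monocytes 2 against 195 and 90.2. The part of these cells in the pattern was not tested. Control monocytes 2 had 10.4 M reads, the fewest of the monocytes, and KO monocytes 2 had 56.8 M, the most.

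**Figure D5:**
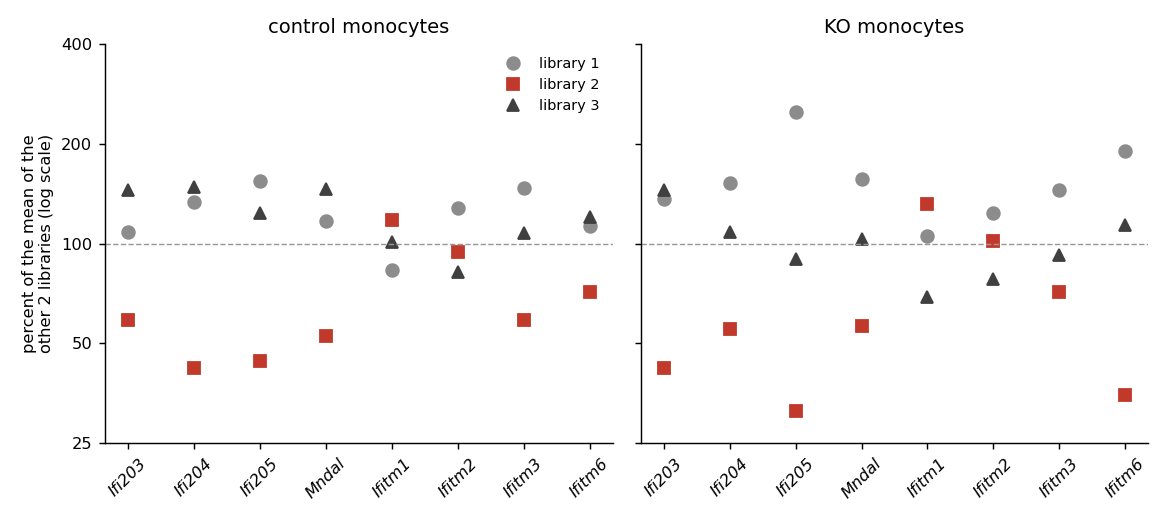
The vertical axis, on a log scale, is the level of each gene in 1 monocyte library as a percent of the mean of the other 2 libraries of its group, for control (left) and KO (right), with the dashed line at 100%. The second library (red squares) lies at 31.2% to 71.7% for the Ifi200 genes, Ifitm3 and Ifitm6 in both genotypes, and above 100% for Ifitm1.

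In a fit without these 4 animals, chosen after seeing the data and leaving 2 libraries a group, 6 members were called in controls and 5 in KO. Ifi204 was then called in both, with differences of 1.01 and 1.37. Ifi205 and Ifitm6 lost their calls in both genotypes, and Ifitm1 in KO. Nothing is read from these calls. No member was called between KO and control in either population.

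Residual correlations over the 12 libraries, after the mean of each group was taken out of log2(value + 1), differed widely between pairs of members. Ifi204 and Ifitm3 had r = 0.90, Mndal and Ifitm3 0.89, and Ifi204 and Mndal 0.71. Ifi205 and Ifitm1 had r = 0.83, and both were lowest of their group in control microglia 1. Ifitm2 ranged from -0.49 with Mndal to 0.00 with Ifi203. The points share library, depth and animal, and these values are a description.

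For each member, the genes with the most similar pattern over the 12 libraries were listed. By Pearson r of log2(value + 1) they were Gpr171 (0.991) and Iqgap2 (0.990) for Ifi203, Ms4a6d (0.993) and Anxa4 (0.972) for Ifi205, and Ms4a4c (0.971) and Ms4a6b (0.963) for Mndal. Ifi204 was nearest to Ifi209 (0.974), of its own family, and to Rtp4 (0.952), an interferon-stimulated target. Among the Ifitm genes, the nearest were Psma7 (0.977) and Fabp5 (0.971) for Ifitm1, Atp8b4 (0.989) and Fth1 (0.987) for Ifitm2, Plac8 (0.988) and Ms4a4c (0.988) for Ifitm3, and Ptpn22 (0.933) and Ddit4 (0.933) for Ifitm6. Gpr171, a G protein-coupled receptor gene, and Iqgap2, a scaffold protein gene, were at or near 0 in all 6 microglia libraries, with means of 1933 and 662 in control monocytes. These r values rest largely on the split between monocytes and microglia, which all 12 points share. The interferon pathway lists held 62 tested genes, where 12424 genes were compared. Most genes thus lie outside these lists, and nothing is read from the nearest genes that do.

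The other family genes gave a mixed picture. Ifi211, Ifi213 and Ifi207 were called higher in control monocytes than in control microglia, 3 of 7 tested, beside 3.46% of all genes. Their differences were 3.15 ± 0.42 (SE), 2.93 ± 0.47 and 1.79 ± 0.30 (limma adjusted p = 9.3e-04, 0.0030 and 0.0042). In KO these 3 and Ifi209 (2.32 ± 0.61, limma adjusted p = 0.042) were called, beside 3.85% of all genes. Ifi207 was at 3659 ± 283 (SD, n = 3) in control microglia and at 12721 ± 1623 in control monocytes. It was also called in the Cxcr4-GFP table (6.25 ± 1.25, limma adjusted p = 0.0079), beside 0.415% of genes called higher there. With GFP microglia 3 at 0, it passed the filter there only with its monocyte libraries, so nothing is read from that call. The family lists were chosen with earlier results of these data known, and these calls are a description.

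Aim2, the inflammasome DNA sensor of the family, and Ifitm10 had higher means in microglia but were not called by limma. DESeq2 called Ifitm10 in KO. Aim2 was at 603 ± 350 (SD, n = 3) in control microglia and 221 ± 219 in control monocytes, and at 869 ± 257 and 214 ± 227 in KO. Ifitm10 was at 375 ± 308 and 96.0 ± 139 in controls and at 354 ± 60.4 and 14.8 ± 19.9 in KO, with no overlap in KO (limma adjusted p = 0.086). Ifi208 and Ifi214 were not called in either genotype. Ifitm5 and Ifitm7 lay at the level of a few reads in most libraries and were not tested. Ifi202b is listed in the Cxcr4-GFP table alone, at 34.9 ± 24.5 (SD, n = 4) in microglia and 354 ± 175 in monocytes (not called, limma adjusted p = 0.26). Ifi206, Ifi203-ps and Ifitm4p are listed in neither table.

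Of 62 tested genes of the interferon pathway itself, limma called 5 higher and 1 lower in control monocytes and 8 higher in KO, beside 6.52% and 6.83% of all genes called in either direction. edgeR called 6 in each genotype and DESeq2 16 in controls and 13 in KO. The counts of all genes that edgeR and DESeq2 called are given with the processing. Of 5 tested ligand and receptor genes, 0 were called by limma, edgeR or DESeq2 in either genotype, with unadjusted p under 0.05 for 0 in controls and 2 in KO. Of 14 signalling genes, 2 rose in monocytes in both genotypes, Irf7, the master regulator of type I interferon induction (2.84 ± 0.50 in controls, limma adjusted p = 0.0057), and Jak2, a receptor-associated kinase (1.95 ± 0.45, adjusted p = 0.023). Of 34 interferon-stimulated targets, 2 were higher in control monocytes, Rsad2 (2.50 ± 0.52, limma adjusted p = 0.013) and Ddx58 (1.78 ± 0.39, adjusted p = 0.019), both antiviral genes. In KO 5 were higher, led by Rsad2 (2.90 ± 0.52, limma adjusted p = 0.0058), Oas3 (7.003 ± 1.66, adjusted p = 0.026) and Isg20 (3.02 ± 0.74, adjusted p = 0.029). DESeq2 called 9 of the 34 targets in each genotype.

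The median difference of the 34 targets was 1.02 in controls, against 4.87 for the members and -0.24 for all genes. Nothing is read from the median of the members, because they were chosen from results of these data. Of 9 tested genes of cytosolic DNA sensing, Samhd1, a dNTP hydrolase, was higher (2.32 ± 0.50, limma adjusted p = 0.016) and Pycard, the inflammasome adaptor, lower in control monocytes (-1.51 ± 0.34, adjusted p = 0.020). Of 54 pathway genes tested in the Cxcr4-GFP libraries, 0 were called by limma and edgeR and 2 by DESeq2, while 8 had an unadjusted p under 0.05. In KO against control, 0 of 62 were called by limma, edgeR or DESeq2, with unadjusted p under 0.05 for 0 in monocytes and 1 in microglia.

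The Ifi200 members lie in a cluster on chromosome 1 and Ifitm1, Ifitm2, Ifitm3 and Ifitm6 on chromosome 7, and close copies can share reads. Of the 31-base words in their GENCODE M21 transcripts, 34.6% occur in transcripts of other genes for Ifi204, 28.7% for Mndal, 22.1% for Ifi205 and 21.9% for Ifi203. Ifi211 was the main partner of Ifi204 (18.9%), Ifi205 (20.5%) and Mndal (11.9%), and Ifi203-ps that of Ifi203 (15.9%). For Ifitm2 the share was 55.5%, for Ifitm3 20.5% and for Ifitm1 11.6%, while Ifitm6 shared 0%. How reads of shared sequence were divided can move levels between such pairs, so the split between Ifi204, Ifi205, Mndal and Ifi211 and the level of Ifitm2 are uncertain.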

How the data were processed

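RNA-seq tables of 20 libraries were analysed. The deposited values are a normalized signal: read counts per gene that the authors divided by DESeq2 size factors, per the submitters' processing notes. These name CASAVA 1.82 for the Cxcr4-GFP table (total RNA, Nugen Ovation SoLo) and bcl2fastq 2.20 and kallisto for the Cxcr4CreER table (polyA RNA, SMART-Seq2). The build, the annotation and how shared reads were assigned are not stated there. All values above 0 (100%) were whole reads within 0.01 of a read.

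The main test was limma 3.58.1 (R 4.3.3) with a trended prior on log2(value + 1), since the deposited values are not counts. Tested genes had 10 normalized counts in at least 4 (Cxcr4-GFP) or 3 (Cxcr4CreER) libraries, and p-values were Benjamini-Hochberg adjusted over all of them, with a threshold of 0.05. A fold change on the log2(value + 1) scale understates the change of low genes. All groups of a table shared 1 estimate of spread. As alternatives, edgeR 4.0.16 (quasi-likelihood) and DESeq2 1.42.0 were run on the recovered reads. For monocytes against microglia, edgeR called 478 genes in controls and 522 in KO, and DESeq2 1614 and 1570. Other alternatives were an offset of 10, no filter, CPM scaling, the 2 groups alone, an animal block and single libraries left out. The scripts were tested on simulated data.

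Animal numbers in the titles tie 4 pairs of libraries in each table. Same-animal deviations from the group means had r of -0.113 to 0.238 (Cxcr4-GFP) and -0.056 to 0.010 (Cxcr4CreER). The members and gene lists were chosen with earlier results of these data known. Named genes are all members and family genes, the 3 called genes with the smallest p per list and direction, and the 2 genes nearest to each member in Pearson r. Genes named otherwise were chosen after their values were seen. Promoter letters came from RefSeq (GRCm38.p6), searched in the 250 bases before each start. Shared words of 31 bases were counted in GENCODE M21 transcripts.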

Additional observations from a re-analysis of the deposited data

Results flagged for a closer look

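Among 14 combinations of a member and a group of 4 libraries, 2 held a library whose gap to the nearest of the other 3 passed Dixon's 95% critical value. Chance marks about 1 group in 20 under the normal distribution that this rule assumes, which groups with values at 0 do not meet. Ifitm2 was at 117 normalized counts in GFP microglia 3, against 1.48 to 9.90 in the other microglia libraries. Mndal was at 2.58 normalized counts in GFP microglia 2 and at 0 in the other 3. With 3 libraries at 0, any value above 0 in the last is flagged, so nothing is read from this flag. A read was worth 1.25 to 2.58 normalized counts in those 3 libraries, so 2.58 cannot be told from their 0.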

How the results depend on the processing

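In the Cxcr4-GFP table, the count of members called changed from 0 to 2 with log2(value + 10), 1 with CPM scaling, 1 with edgeR, 2 with DESeq2 and 2 when GFP monocytes 3 and GFP microglia 3 and 4 were left out, and was 0 to 1 with single libraries left out. For monocytes against microglia in the Cxcr4CreER table it ranged from 5 to 8, and in the KO comparisons and the genotype-by-population term it was 0 under each alternative. With the replicate block for animals, 0, 7 and 7 members were called in Cxcr4-GFP, control and KO, and no call of a member changed. The block moved the count of all genes called from 70 to 60 in Cxcr4-GFP.

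In KO against control monocytes, Ifi204 was -0.036 by DESeq2 and -0.12 without the animals that gave 1 library or the monocyte-only animals. Ifi205 was 0.10 by edgeR, 0.071 by DESeq2 and 0.094 without those animals, and Ifitm6 was 0.11. In microglia, without the 4 animals, Ifi205 was 0.25 and Ifitm6 -0.012. With single libraries left out, monocyte differences ranged from -0.55 to 0.12 for Ifi203, -0.40 to 0.30 for Ifi204, -0.54 to 0.48 for Ifi205, -0.068 to 0.38 for Ifitm3 and -0.59 to 0.27 for Ifitm6. Microglia differences ranged from -0.72 to 0.018 for Ifi204, -1.54 to 1.06 for Ifi205, -0.32 to 3.26 for Ifitm1, -0.62 to 0.27 for Ifitm3 and -2.46 to 0.068 for Mndal. The cause was not tested. Sets of libraries left out together were chosen after seeing the data.

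Counts over all genes moved more. In Cxcr4-GFP, 70 genes became 198 with the offset of 10, 38 with no filter, 181 with DESeq2 and 1058 without the 3 libraries. In controls, 810 became 478 with edgeR, 1614 with DESeq2, 386 with the 2 groups alone and 487 without the 4 animals. In KO, 849 became 522 with edgeR, 1570 with DESeq2 and 386 without the 4 animals. KO against control gave 5 genes in monocytes (0 with edgeR, 338 with DESeq2) and 4 in microglia (0 and 108). In Cxcr4-GFP 1 read is worth 0.104 to 2.58 normalized counts and in Cxcr4CreER 0.375 to 2.19, so lower values cannot be told from 0.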
